A study of Rattus norvegicus with 6 samples.

Results

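A set of 10 genes is commonly used to recognise heart muscle or to follow its hormone output, and 8 of these 10 were measured here. The genes were Nppa, Nppb, Myh6, Tnni3, Tnnt2, Myl2, Myl3, Myl7, Actc1 and Ryr2, and each was read from its brightest probe set with a single gene symbol, out of 18166 genes measured in this way. Myl2 and Actc1 have no probe set with a single gene symbol in the annotation used here and were not analysed. There were 6 arrays, with 3 from each of the groups called Hlirag and diabetic.

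Every rat was a diabetic male of the Sprague–Dawley strain. Diabetes was brought on from the age of 5 weeks by 4 weeks of high-fat feeding followed by 30 mg/kg of streptozotocin, which destroys the cells that make insulin. For 12 weeks the Hlirag rats were then given 0.4 mg/kg/day of liraglutide, a drug that activates the receptor of the gut hormone GLP-1, and the diabetic rats saline, with 6 rats in each study group. The labels state an age of 17 weeks. That is earlier than the end of this schedule of feeding and treatment, and the sources used here do not explain the difference. No array of a rat without diabetes was analysed here. The labels name cardiac muscle as the tissue, whereas the sample titles begin with "arota", and the free text of the labels speaks of fat. Whether each array holds RNA of a separate rat is not given in the sources used here. All p-values below therefore reflect the spread of these 6 arrays, and part of that spread may be technical.

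A heart muscle cell contracts when calcium, released from its internal store, binds troponin on the thin filament and lets myosin pull. Several of these contractile proteins exist in forms made mainly by heart muscle, and some of these in forms of the atria or of the ventricles. Atrial cells also store and secrete atrial natriuretic peptide, the product of Nppa, when stretched. The product of Nppb, B-type natriuretic peptide, comes from atria and ventricles, and its gene rises under load.

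Values are log2 signals, so a difference of 1 is a doubling. The background level was 6.01, the 95th percentile of all values of 68 olfactory receptor genes, taken as silent outside the nose. Taken within each array, the same percentile was 5.36 to 6.05 on 5 arrays and 7.40 on Hlirag replicate 3. Gene values also had a narrower spread on Hlirag replicate 3 (SD 1.52) than on the other arrays (SD 1.84 to 1.98).

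None of the 8 genes differed between Hlirag and diabetic at the study's criterion, which asks for a fold change over 1.5 together with an unadjusted p under 0.05. By limma, fitted across all genes, 3.78% of the 18166 genes met that criterion, 1.62% higher and 2.16% lower in Hlirag. An unadjusted p under 0.05 was reached by 4.14% of the genes, and an adjusted p under 0.05 by 0 genes (0%). With the study's own test in place of limma, 1.3% of the genes met the criterion. The groups did not overlap in 11.1% of all genes and in 0 of the 8. The median log2 fold change of the 8 genes (Hlirag minus diabetic) was -0.20, beside 0.00 for all genes. Within each group the arrays differed widely in several of these genes, as their single values show.

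Myh6, Tnni3, Tnnt2 and Myl7 were above background on Hlirag replicate 1 and diabetic replicate 1, and below it on the other 4 arrays. Myh6 encodes the alpha myosin heavy chain, the main motor of the adult rat heart. In the order of replicates 1, 2 and 3, its signal was 7.88, 3.81 and 4.19 in Hlirag and 9.16, 3.76 and 3.93 in diabetic. Each group thus held 1 bright and 2 dim arrays, and the groups overlapped. The means were 5.29 ± 2.25 in Hlirag and 5.62 ± 3.06 in diabetic (SD, n = 3 each), a log2 fold change of -0.33 with an SE of 1.60 (limma, adjusted p = 0.947).

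Tnni3 encodes cardiac troponin I, the inhibitory subunit, which in adults is made by heart muscle. It measured 7.82, 5.40 and 5.73 in Hlirag and 9.09, 4.64 and 5.27 in diabetic. Tnnt2, for cardiac troponin T, which anchors the complex to tropomyosin, measured 8.05, 4.91 and 4.76 in Hlirag and 9.68, 4.40 and 4.52 in diabetic. The arrays that were bright for Myh6 were bright for both troponins. The log2 fold changes were -0.02 (SE 1.16) for Tnni3 and -0.29 (SE 1.49) for Tnnt2, with adjusted p = 0.997 and 0.949 from limma.

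Myl7 encodes the regulatory myosin light chain of the atria. Its signal was 8.98, 4.92 and 5.89 in Hlirag and 10.30, 4.42 and 5.36 in diabetic, again bright on replicate 1 of each group. The log2 fold change was -0.10 (SE 1.60, adjusted p = 0.985 from limma). The replicate numbers do not show that these arrays belong together. In all 4 genes diabetic replicate 1 exceeded Hlirag replicate 1, by 1.28 for Myh6, 1.27 for Tnni3, 1.63 for Tnnt2 and 1.32 for Myl7. Hlirag replicate 1 in turn exceeded the brightest of the other 4 arrays by 3.69 for Myh6, 2.10 for Tnni3, 3.14 for Tnnt2 and 3.10 for Myl7. In bulk RNA, fewer cells of a type and less RNA per cell cannot be told apart.

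**Figure D1:**
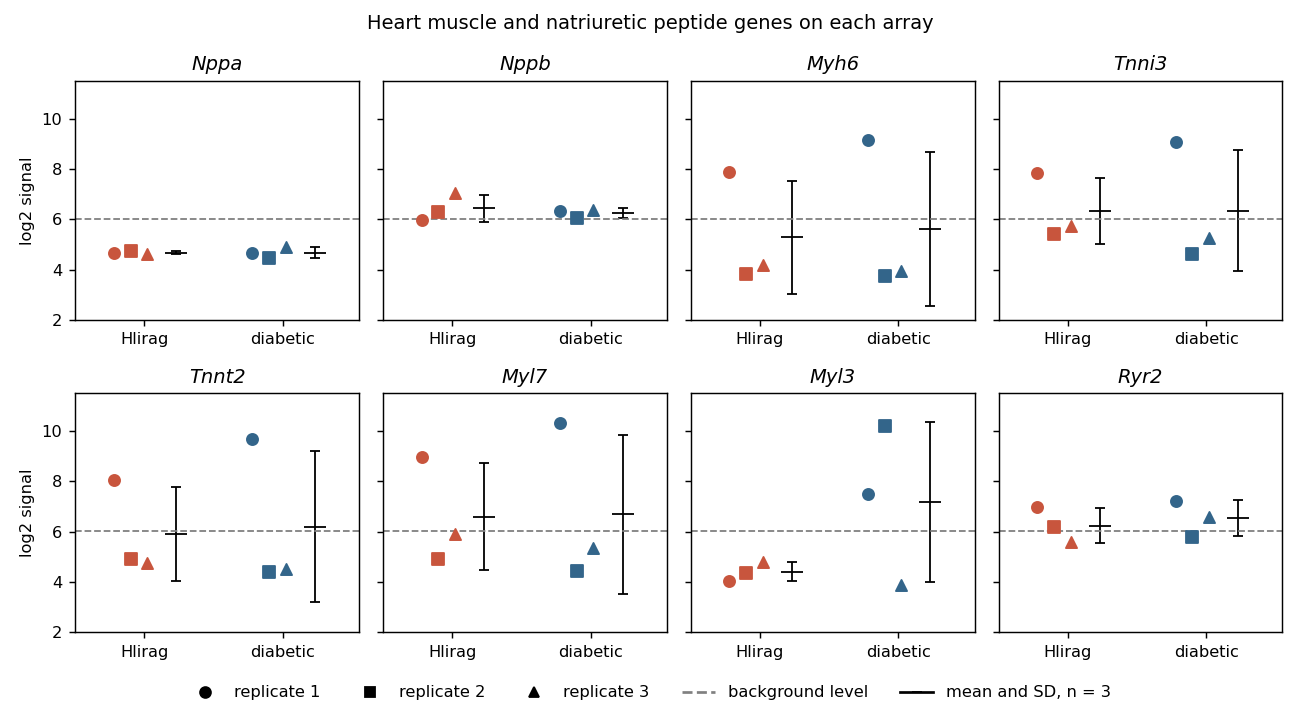
Log2 signal of the 8 measured genes on each array (circles, squares and triangles are replicates 1, 2 and 3), with mean and SD (n = 3) at the right of each group and the background level of 6.01 dashed. Myh6, Tnni3, Tnnt2 and Myl7 lie above the line on replicate 1 of each group, Myl3 on diabetic replicates 1 and 2, and Nppa on no array.

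The spread within groups was large for these genes. The pooled SD within groups was 2.69 for Myh6, 1.94 for Tnni3, 2.51 for Tnnt2 and 2.69 for Myl7, where the median gene had 0.36. Of all genes, 99.7% had a smaller SD than Tnni3 and 99.97% a smaller SD than Myl7. With values below background raised to that level, the log2 fold changes were -0.43, -0.42, -0.54 and -0.44 for Myh6, Tnni3, Tnnt2 and Myl7. Leaving out arrays turned the sign of the group difference. Without diabetic replicate 1 the log2 fold changes were 1.44, 1.36, 1.45 and 1.70 for Myh6, Tnni3, Tnnt2 and Myl7, and without Hlirag replicate 1 they were -1.62, -0.77, -1.36 and -1.29. Without replicate 1 of either group, a setting chosen after seeing the data, they were 0.15, 0.61, 0.38 and 0.51. No one of these values met the criterion. In the last setting every remaining signal of these genes lay below background, so its differences are not read as fold changes.

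The start regions of these 4 genes, which moved together over the arrays, are shown for reference. Each runs from 250 bases before to 50 bases after the start in the RefSeq annotation of GRCr8, read on the gene's strand: chr15:32411648-32411947 (- strand) for Myh6, chr1:78342321-78342620 (+ strand) for Tnni3, chr13:49818873-49819172 (+ strand) for the first of the starts listed for Tnnt2 and chr14:84996575-84996874 (- strand) for Myl7. Capitals mark the matches to 6 motifs on either strand. For factors of the GATA family the letters were AGATAA. For factors of the TEAD family they were CATTCC. For the factor NKX2-5 they were TCAAGTG. For factors of the T-box family they were GGTGTG. The CArG box, bound by SRF, and the site of MEF2 were searched by their usual consensus. No matches overlap in these regions.
Myh6: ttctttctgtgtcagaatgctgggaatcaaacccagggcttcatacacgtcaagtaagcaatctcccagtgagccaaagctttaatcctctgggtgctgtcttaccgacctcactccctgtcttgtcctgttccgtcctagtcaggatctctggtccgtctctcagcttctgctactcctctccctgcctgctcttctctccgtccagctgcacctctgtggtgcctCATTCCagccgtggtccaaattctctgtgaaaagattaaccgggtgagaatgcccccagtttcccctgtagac
Tnni3: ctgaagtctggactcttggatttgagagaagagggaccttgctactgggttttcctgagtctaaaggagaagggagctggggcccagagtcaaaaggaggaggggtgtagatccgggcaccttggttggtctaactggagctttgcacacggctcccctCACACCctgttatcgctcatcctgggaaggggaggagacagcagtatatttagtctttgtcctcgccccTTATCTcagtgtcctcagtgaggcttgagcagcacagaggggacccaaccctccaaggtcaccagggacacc
Tnnt2: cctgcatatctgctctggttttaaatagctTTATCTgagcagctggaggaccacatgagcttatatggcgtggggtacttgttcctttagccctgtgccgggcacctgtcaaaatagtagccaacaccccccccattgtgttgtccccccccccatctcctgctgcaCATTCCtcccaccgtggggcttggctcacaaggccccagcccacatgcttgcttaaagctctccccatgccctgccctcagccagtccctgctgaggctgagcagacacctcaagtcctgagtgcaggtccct
Myl7: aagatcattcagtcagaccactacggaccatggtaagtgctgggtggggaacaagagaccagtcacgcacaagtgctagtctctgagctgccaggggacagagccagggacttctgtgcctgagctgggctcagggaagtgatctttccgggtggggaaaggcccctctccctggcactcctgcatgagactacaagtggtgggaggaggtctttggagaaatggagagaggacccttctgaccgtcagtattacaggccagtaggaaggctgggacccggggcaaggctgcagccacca
The GATA letters lie in the regions of Tnni3 and Tnnt2, and in 11.6% of the 33469 start regions of the annotation. The TEAD letters lie in those of Myh6 and Tnnt2, and in 14.2% of all. The T-box letters lie in that of Tnni3, and in 17.9% of all. The NKX2-5 letters, the CArG box and the MEF2 site, held by 3.04%, 1.64% and 0.565% of all regions, are in none of the 4, and the Myl7 region holds no match.

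Myl3 followed another set of arrays. It encodes the essential myosin light chain of the ventricles, which slow skeletal muscle fibres make too. Its signal was 4.05, 4.37 and 4.81 in Hlirag and 7.52, 10.20 and 3.86 in diabetic. It was above background on diabetic replicates 1 and 2, and below it on diabetic replicate 3 and on every Hlirag array, so the groups overlapped. The means were 4.41 ± 0.38 and 7.19 ± 3.18 (SD, n = 3 each), a log2 fold change of -2.78 with an SE of 1.35 (limma, adjusted p = 0.780). Since Hlirag lay below background, this difference is also given with values below that level raised to it, and was then -1.90. Without diabetic replicate 3 Myl3 met the criterion, with -4.45 (limma, adjusted p = 0.152). Without diabetic replicates 1 and 2 all signals left lay below background, so their difference of 0.54 is not read as a fold change. Over the alternative settings the adjusted p of Myl3 was never under 0.152.

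The start region of Myl3 (chr8:119616844-119617143 (+ strand), GRCr8) is shown because Myl3 was the one measured gene of the set that was bright on diabetic replicate 2. It holds the TEAD letters at 2 places and the CArG box at 1.
Myl3: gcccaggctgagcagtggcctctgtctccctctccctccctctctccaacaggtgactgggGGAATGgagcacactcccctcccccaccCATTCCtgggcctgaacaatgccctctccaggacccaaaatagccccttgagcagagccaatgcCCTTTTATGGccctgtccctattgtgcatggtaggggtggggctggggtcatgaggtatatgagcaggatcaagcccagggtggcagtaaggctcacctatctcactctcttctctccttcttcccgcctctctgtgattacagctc

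Genes of slow skeletal muscle were high on the same arrays as Myl3. Of 5 measured genes of that list, 5 were above background on diabetic replicates 1 and 2 and 0 on each of the other 4 arrays. Its median level was 7.34 and 10.31 on diabetic replicates 1 and 2, and 4.23 to 4.55 on the others. Among them Myh7, the slow myosin heavy chain of slow fibres and of heart muscle, measured 8.12 and 11.03 on diabetic replicates 1 and 2 and 3.57 to 4.14 elsewhere. On diabetic replicate 2, where Myh7 was brightest, Myh6, its neighbour in the genome and close in sequence, was at 3.76. Fast skeletal muscle genes behaved alike, with 10 of 10 above background on diabetic replicates 1 and 2 and 2 or 3 of 10 on the other arrays, as did nerve genes, with 7 of 8 and 8 of 8 above it on diabetic replicates 1 and 2 and 0 to 2 of 8 elsewhere. Their part in the Myl3 difference was not tested.

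**Figure D2:**
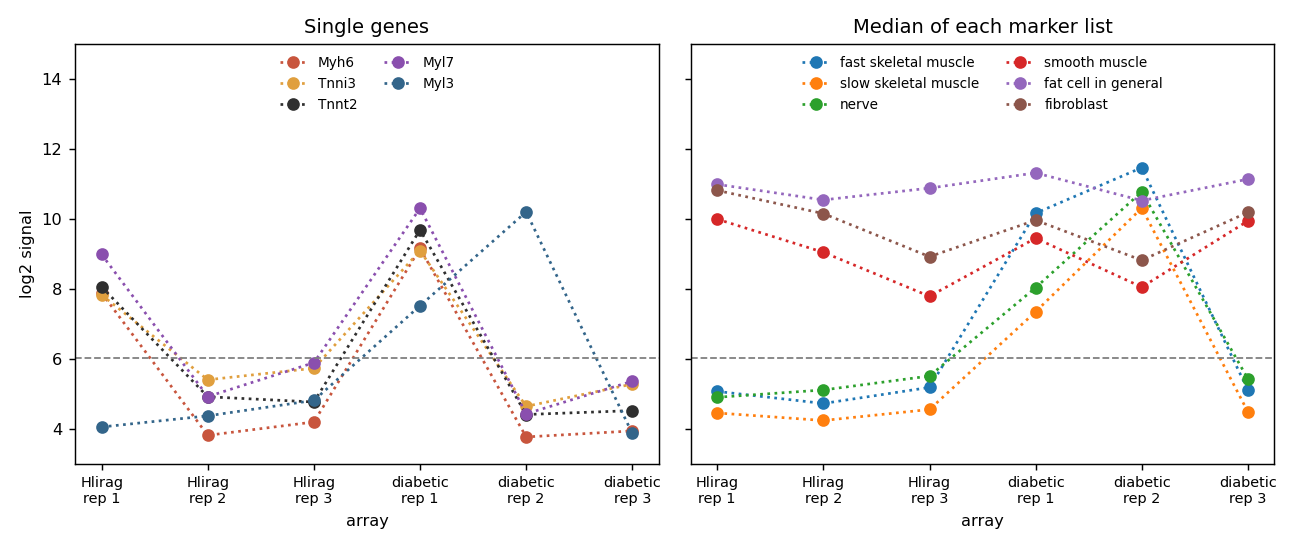
Log2 signal of single heart muscle genes (left) and the median of marker lists (right) on the 6 arrays, with the background level of 6.01 dashed and dotted lines that only join the points of 1 gene or list. Myl3 and the skeletal muscle and nerve lists are high on diabetic replicates 1 and 2, the other 4 heart genes on replicate 1 of each group, and the smooth muscle, fat cell and fibroblast lists lie above background on every array.

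The atrial genes were set against the ventricular gene on each array, after each gene was centred on its mean over the 6 arrays. Nppa and Myl7 stood for the atria and Myl3 for the ventricles, since Myl2 was not measured. The atrial mean minus Myl3 was 2.92, 0.60 and 0.59 in Hlirag and 0.11, -5.62 and 1.4 in diabetic, again in the order of replicates 1, 2 and 3. The value of diabetic replicate 2 stood apart, and the other 5 lay between 0.11 and 2.92. On diabetic replicate 2 Myl3 measured 10.20, while Myh6, Tnni3 and Tnnt2 were below background and the slow skeletal muscle genes above it. Since slow skeletal fibres make Myl3 too, the contrast cannot tell ventricular from skeletal muscle. The group means were 1.37 ± 1.34 in Hlirag and -1.37 ± 3.74 in diabetic (SD, n = 3 each), a difference of 2.74 that is smaller than the pooled SD of 2.81. It was 0.61 without diabetic replicate 2 and -0.03 without diabetic replicates 1 and 2. Nppa varied little, with centred values from -0.22 to 0.22, against -2.22 to 3.66 for Myl7. The atrial mean over both genes therefore moved less than Myl7 alone, from -1.22 to 1.82. On diabetic replicate 1 the centred values were 3.66 for Myl7, 1.82 for the atrial mean and 1.72 for Myl3. The size of the contrast thus depends on the use of Nppa, which was above background on no array.

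Nppa was not above background on any array. Its signal was 4.66, 4.73 and 4.63 in Hlirag and 4.66, 4.45 and 4.89 in diabetic, on a single probe set. The values of the 2 arrays on which Myl7 was bright were the same to 2 decimals, 4.66. Both groups lay below background, so their difference of 0.01 (SE 0.22, adjusted p = 0.991 from limma) is not read as a fold change. Whether this probe set can report the transcript was not tested, and a dim probe set cannot be told apart from a missing transcript. Other genes of atrial muscle differed in the arrays on which they were above background. Sln, the regulator of the calcium pump in atria and skeletal muscle, measured 8.12, 5.16 and 6.15 in Hlirag and 9.30, 10.74 and 4.75 in diabetic, so it was above background on Hlirag replicates 1 and 3 and on diabetic replicates 1 and 2, though on Hlirag replicate 3 it lay below that array's own level of 7.40. Mybphl, a myosin-binding protein of the atria, was above background on diabetic replicate 1 alone, at 6.87. On Hlirag replicate 1 it measured 5.99, above that array's own level of 5.36. Kcna5, an atrial potassium channel, and Gja5, a gap junction protein of atria and arteries, lay near background, at 5.81 to 6.52 and 5.25 to 6.66, and were above it on 4 arrays each. Kcnj3, Kcnj5 and Bmp10 were above background on no array. In this list of 7 measured genes 0 met the criterion.

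Nppb lay near background. It measured 5.96, 6.29 and 7.03 in Hlirag and 6.35, 6.03 and 6.38 in diabetic. The highest value, on Hlirag replicate 3, was below the level of 7.40 that olfactory receptor genes reached on that same array. The means were 6.43 ± 0.55 and 6.25 ± 0.19 (SD, n = 3 each), and the groups overlapped. The log2 fold change was 0.18 (SE 0.31, adjusted p = 0.847 from limma) and -0.12 without Hlirag replicate 3. The rest of the natriuretic peptide pathway was described from a list of 12 genes, all measured. Of the 12, 1 was higher and 0 were lower in Hlirag at the criterion, beside 1.62% and 2.16% of all genes. The higher gene was Mme, or neprilysin, an enzyme that degrades natriuretic peptides among others. Its signal was 8.16 to 9.18 in Hlirag and 7.62 to 8.13 in diabetic, a log2 fold change of 0.80 (SE 0.31, adjusted p = 0.780 from limma). Its groups did not overlap, but it met the criterion in 1 of 6 fits with an array left out, that without Hlirag replicate 1, and not by the study's own test or after median centring. Npr3, the clearance receptor, had a log2 fold change of 0.41 and did not meet it. Corin, the protease that activates the atrial peptide in heart muscle, lay below background on every array (4.77 to 5.71). On diabetic replicate 1 it measured 5.43, just above that array's own level of 5.38.

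Ryr2 encodes the calcium release channel of heart muscle, which brain and smooth muscle also make. Its signal was 6.98, 6.17 and 5.57 in Hlirag and 7.22, 5.79 and 6.60 in diabetic. It was highest on replicate 1 of each group, yet its range over the arrays was 1.64, against 5.39 for Myh6. The log2 fold change was -0.30 (SE 0.46, adjusted p = 0.832 from limma), and the sign turned without Hlirag replicate 3 (0.038) or without diabetic replicate 1 (0.045).

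**Figure D3:**
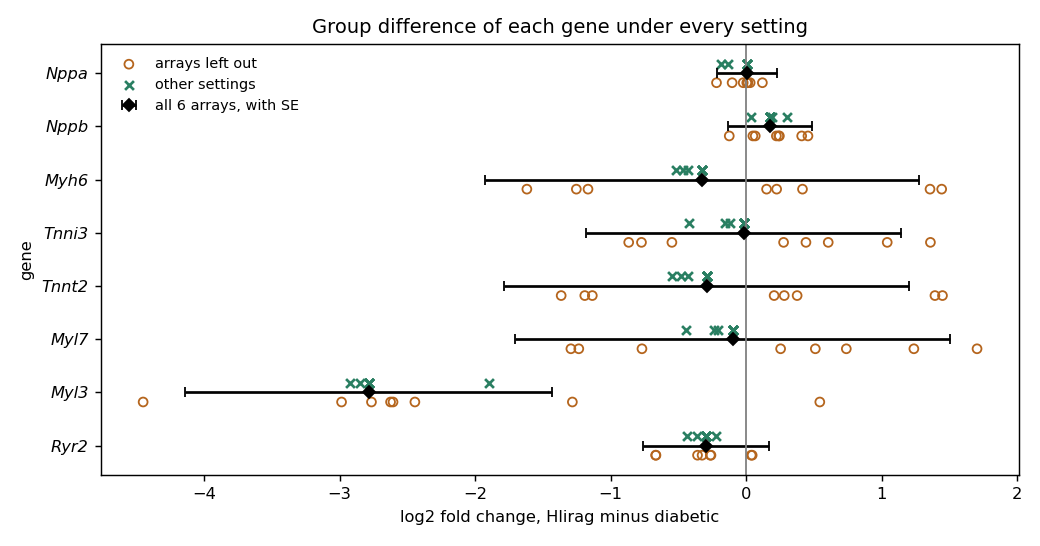
Log2 fold change of each gene (Hlirag minus diabetic) with all 6 arrays (diamond, with SE), with 1 or 2 arrays left out (circles) and under other settings (crosses). For Myh6, Tnni3, Tnnt2 and Myl7 the circles lie on both sides of 0, from -1.62 to 1.44 for Myh6, and for Myl3 from -4.45 to 0.54. Some circles, such as the 0.54 of Myl3, rest on signals below background alone.

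Taking the 8 genes array by array, 5 were above background on Hlirag replicate 1, 2 on Hlirag replicate 2, 1 on Hlirag replicate 3, 7 on diabetic replicate 1, 2 on diabetic replicate 2 and 2 on diabetic replicate 3. Against each array's own level from olfactory receptor genes the counts were 6, 2, 0, 7, 3 and 2. On the 4 arrays other than replicate 1 of each group, the labelled cardiac muscle therefore lacked a signal above background of Myh6, Tnni3, Tnnt2, Myl7 and Nppa. On every array, 8 of 8 measured smooth muscle genes and 8 of 8 fat cell genes were above background, with median levels of 7.79 to 9.99 and 10.52 to 11.31. Against each array's own level the smooth muscle count was 6 of 8 on Hlirag replicate 3, and no other of these counts changed.

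To see how far these patterns reached, 42 other heart muscle genes were examined, which makes 50 with the 8 (56 were listed). Of the 50, 5 were above background on exactly Hlirag replicate 1 and diabetic replicate 1, and these were Myh6, Tnni3, Tnnt2, Myl7 and Ankrd1, a nuclear and sarcomeric protein of stretched heart muscle. A further 5 were above it on diabetic replicate 1 alone, among them Mybpc3, the cardiac myosin-binding protein C, and Nebl, the heart form of nebulin. On Hlirag replicate 1 these 5 measured 5.47 to 5.99, above that array's own level of 5.36. Myl3 shared diabetic replicates 1 and 2 with Myh7, Myom2, Lmod2 and Trdn, all known from skeletal muscle as well. On Hlirag replicate 1 and diabetic replicates 1 and 2 there were 6, such as Ttn, the giant spring of the sarcomere, and Csrp3, a Z disc protein of striated muscle. Of the rest, 12 were above background on all 6 arrays, 5 on no array and 12 on other combinations. Those above it on all 6 were Hey2, Pln, Tpm1, Actn2, Xirp1, Des, Atp2a2, Casq2, Jph2, Popdc2, Gja1 and S100a1. Vascular smooth muscle is also known to make some of them, such as Des, Tpm1, Pln and Gja1. Against each array's own level, Tpm1, Des, Atp2a2, Popdc2 and Gja1 stayed above on 6 arrays, and the others of these 12 on 5. Diabetic replicate 2 held the highest value of 22 of the 50 genes, diabetic replicate 1 of 14, diabetic replicate 3 of 7, Hlirag replicate 3 of 4, Hlirag replicate 1 of 3 and Hlirag replicate 2 of 0.

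**Figure D4:**
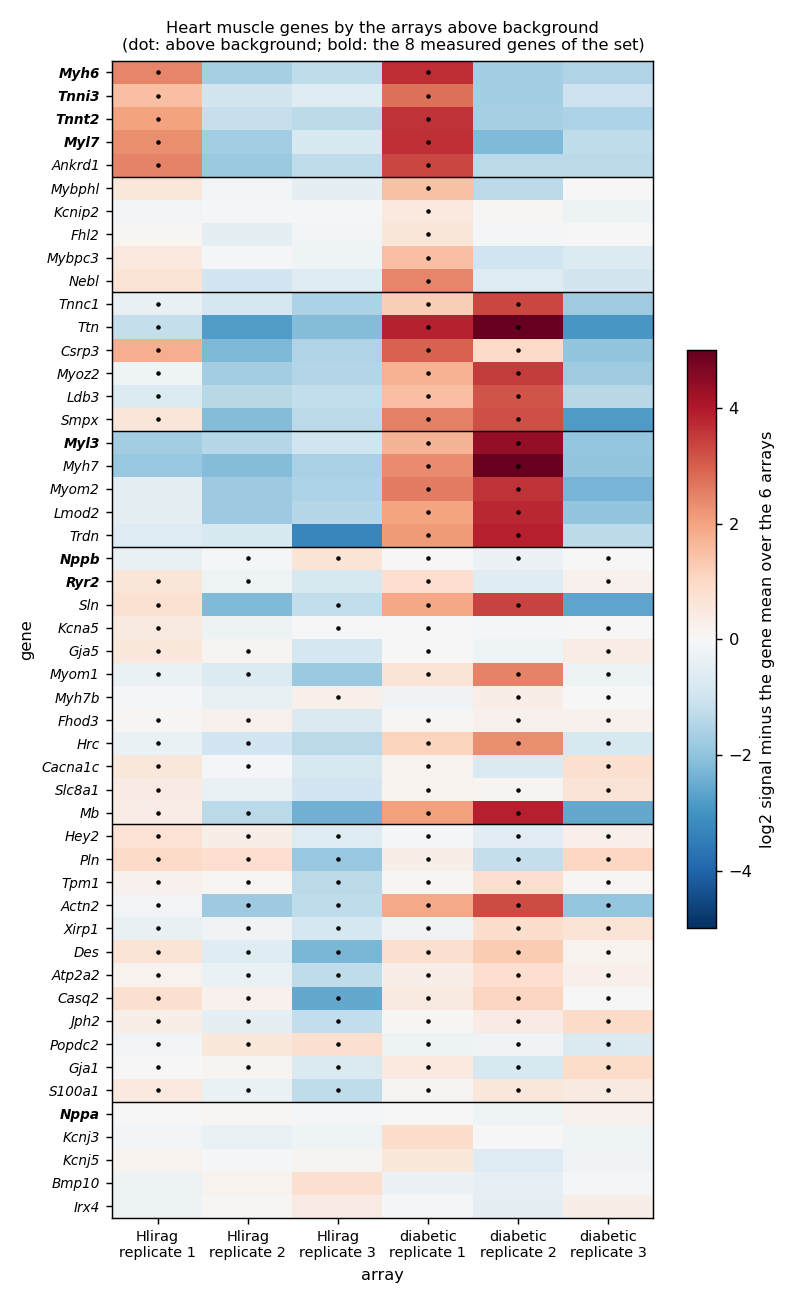
Log2 signal of 50 heart muscle genes (rows) on the 6 arrays (columns), each minus the gene's mean over the arrays. A dot marks a value above the background level of 6.01, bold names are the 8 measured genes, and lines separate genes by the arrays on which they were above it, so that Myh6, Tnni3, Tnnt2, Myl7 and Ankrd1 form the top block.

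Among the 42 other heart muscle genes, 1 was higher and 6 were lower at the criterion, with a median log2 fold change of -0.71. Of all genes, 1.62% were higher and 2.16% lower at it. By the study's own test 0 of these 42 met the criterion. Popdc2, a membrane protein of heart and skeletal muscle, was higher (0.79, SE 0.31), and met the criterion in 2 of 6 fits with an array left out. Lower were Myh7 with -3.79, Trdn with -3.13, Myom1 with -1.92, Hrc with -1.75, Atp2a2 with -0.96 and Xirp1 with -0.93, each with adjusted p = 0.780 in limma. Of the 6 fits with an array left out, Myh7 met the criterion in 1, Trdn, Hrc and Atp2a2 in 2 each, Xirp1 in 3 and Myom1 in 4. Without diabetic replicates 1 and 2, on which the skeletal muscle genes were high, 1 of these 6 still met it, Xirp1 with -1.16. The others had log2 fold changes of -0.73 for Atp2a2, -0.70 for Myom1, -0.24 for Trdn, -0.07 for Hrc and 0.07 for Myh7. For Trdn and Myh7 all signals left in that setting lay below background.

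Of the 11 measured genes known to respond to stretch and hypertrophy, 0 were higher and 3 were lower at the criterion, beside 1.62% and 2.16% of all genes. The lower genes were Acta1 (-3.63, skeletal alpha actin), Myh7 and Uchl1 (-2.49, a deubiquitinase abundant in neurons). All of them are counted in other lists as well. Acta1 is in the fast skeletal list, Myh7 in the slow skeletal and ventricular lists, and Uchl1 in the nerve list. Acta1 and Uchl1 had 0.03 and -0.19 without diabetic replicates 1 and 2. Each of these 3 genes met the criterion in 1 of 6 fits with an array left out, and 0 of the 11 were lower by the study's own test or with values raised to background. Among markers of other cells, 8 of 10 fast skeletal, 3 of 5 slow skeletal and 5 of 8 nerve genes were lower at the criterion, with median log2 fold changes of -3.62, -3.35 and -2.83, where 2.16% of all genes were lower. In each of these lists 0 genes were lower at the criterion by the study's own test, with values raised to background, or without diabetic replicates 1 and 2. Without diabetic replicate 1 alone the counts were 0, 0 and 2. Of 9 brown fat genes 3 were higher, where 1.62% of all genes were. Among them was Ucp1, whose product lets brown fat make heat, with 3.40 (adjusted p = 0.780 from limma). Ucp1 measured 10.75, 12.75 and 12.03 in Hlirag and 10.92, 7.35 and 7.05 in diabetic, so the groups overlapped. It met the criterion in 6 of 6 fits with an array left out, Cidea in 2 and Otop1 in 1. Median centring left 1 of the 9 at the criterion and the study's own test 0. Of 5 endothelial genes 1 was lower (Esam, -0.76, in 1 of 6 fits with an array left out and not by the study's own test), and 0 of 8 smooth muscle, 0 of 8 fat cell and 0 of 7 fibroblast genes met the criterion.

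The genes whose pattern was nearest to Tnni3 were found by the root mean square difference of centred log2 signals over the 6 arrays, among 10202 genes outside the set with at least 1 value above background. Tnnt2 (0.54), Myl7 (0.65) and Myh6 (0.70) of the set itself lay close to Tnni3 as well. The nearest genes outside the set were Nebl (0.56), Ankrd1 (0.69), Mybpc3 (0.83), Mybphl (0.85) and Tbx5 (0.93), where Tbx5 is a T-box transcription factor of the heart. Among the measured genes of the set, Myh6 lay nearest to Tnnt2 (0.27) and to Myl7 (0.32). Nearest to Myl3, a search added after seeing the data because Myl2 was not measured, were Lmod3 (0.15), Rab3c (0.16), Txlnb (0.18), Chrna3 (0.25) and Art1 (0.25). Lmod3 is an actin nucleator of skeletal muscle, and Chrna3 is an acetylcholine receptor subunit of autonomic neurons. Nppa, which hardly varied, was nearest to Dgkq, Snapc2, Tmem231, Bach1 and Vstm4 (0.05 to 0.06). All arrays share the platform and its processing, and the likeness is a description over 6 arrays.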

How the data were processed

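Affymetrix GeneChip Rat Gene 2.0 ST arrays were used, 3 in each group. The authors read the scans with the Expression Console software. From their range, the deposited values are log2 signals, and each of 36685 probe sets has 1 value on each of 6 arrays. Their summarisation, normalization and centring are not given in the sources used here. The array medians ran from 4.94 to 5.39. Groups were taken from the labels, and the dose of the treated group from the paper.

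Probe sets with 1 symbol (18511) were kept, those with several (575) or none (17599) were not, and the brightest stood for each of 18166 genes. Start regions came from a RefSeq table of GRCr8, which held 9 of the 10 members. limma 3.58.1 in R 4.3.3 compared the groups with lmFit and eBayes, without covariates. Adjusted p-values are those of Benjamini and Hochberg across the 18166 genes. The study's own test was a one-way ANOVA. The fit was tested on simulated data. The members and gene lists were chosen with earlier results of these data known, so their counts carry no test. Named genes are the members, genes of the lists at the criterion with the lowest p, and the 5 genes nearest to Nppa and to Tnni3. Genes named beside these for their array pattern, and those nearest to Myl3, were chosen after their values were seen. Arrays have no read depth, and their number limits the precision. Alternatives were other tests, normalizations, filters, probe set rules, a block for the replicate number, and fits with arrays left out. Figures were drawn with matplotlib 3.10.9.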

Additional observations from a re-analysis of the deposited data

How the results depend on the processing

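The number of genes at the criterion, 687 in the comparison of all arrays, was 236 by one-way ANOVA, 391 without dim genes, 1242 with all probe sets, 1117 with the replicate number as a block, 269 with values raised to background and 286 without diabetic replicates 1 and 2, and 226 to 2018 with 1 array left out (in Hlirag 2018, 226 and 350 on leaving out replicate 1, 2 or 3, and in diabetic 343, 370 and 1062). The number of the 8 genes at the criterion was 0, and 0 to 1 with 1 array left out, with Myl3 called without diabetic replicate 3. The cause was not tested.

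Of 132 values of single genes under 17 alternatives, 102 kept their direction and their side of the criterion, 1 (Myl3) came to meet it and 29 turned in sign, none of these at the criterion. Nppa, at 0.01 with all arrays, turned to -0.19 with quantile normalization and -0.13 with median centring. Without diabetic replicates 1 and 2, where the lone diabetic array is assumed to vary like the Hlirag arrays, values turned to -0.22 for Nppa, 1.36 for Myh6, 1.04 for Tnni3, 1.39 for Tnnt2, 1.24 for Myl7 and 0.54 for Myl3. Without replicate 1 of either group they turned to 0.15 for Myh6, 0.61 for Tnni3, 0.38 for Tnnt2 and 0.51 for Myl7. Every signal left for these genes in that setting lay below background. The same held for Myl3 and Nppa without diabetic replicates 1 and 2. Such differences are not read as fold changes. With 1 array left out, values ran from -1.62 to 1.44 for Myh6, -0.87 to 1.36 for Tnni3, -1.36 to 1.45 for Tnnt2, -1.29 to 1.70 for Myl7, -0.10 to 0.12 for Nppa, -0.12 to 0.41 for Nppb and -0.67 to 0.045 for Ryr2. The contrast of atrial and ventricular genes, 2.74 with a pooled SD of 2.81, is too variable for a statement on its stability, and was 0.61 without diabetic replicate 2 and -0.03 without diabetic replicates 1 and 2.

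Deviations from group means over genes correlated by 0.32, 0.04 and 0.15 between arrays with the same replicate number, for numbers 1 to 3. Each diabetic array, and Hlirag replicates 1 and 3, correlated best with the array of the same number in the other group. Hlirag replicate 2 correlated best with diabetic replicate 1 (0.16). The number was not taken as a pairing in the main fit, and whether it marks a pair or a batch was not tested. With the replicate number as a block 0 of the 8 genes met the criterion, and the log2 fold change of Myl3 was -2.78 with an adjusted p = 0.614. Signal over background limits Nppa and Nppb, and the other genes of the set on the arrays where they lay below it.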
